A study of Mus musculus with 8 samples.

Results

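The cytosolic ribosomal protein genes were examined in 4T1 cells, a triple-negative breast cancer line from a spontaneous mammary tumor of a BALB/c mouse. Members were the protein-coding genes whose symbols start with Rpl or Rps and a digit, together with Rplp0, Rplp1, Rplp2 and Rpsa, without pseudogenes and S6 kinases, which gave 86 of the 54532 genes counted. By symbol, 46 encode core proteins of the large (60S) subunit, 31 encode core proteins of the small (40S) subunit and 8 are duplicated or tissue-restricted paralogs. The symbol also takes in Rps19bp1, which encodes a protein that binds RPS19 and is no part of the ribosome. Of the 86 members, 83 passed the filter on low values (above 1 CPM, the count scaled to a library total of 1000000, in 2 or more libraries), and each of these was at 17.1 CPM or more in every library.

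By stable transfection the cells had either MCT-1 silenced by shRNA (called shMCT-1) or a scramble control. They were kept under puromycin and received an antibody to the IL-6 receptor (anti-IL-6R, 100 ng/ml) or IgG for 48 h, with no dose given for IgG. Poly(A) RNA was sequenced from 2 cultures, described as independent biological replicates, of each of the 4 combinations of line and antibody, which are named by both, as in scramble + IgG. The sources used here do not state whether each line was a pool or 1 clone, so that silencing and any other difference between the 2 lines cannot be told apart. The question for these genes was whether their mRNAs differ with MCT-1 silencing, with IL-6R blockade, or with both.

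A ribosome holds 1 copy of most of these proteins, assembled on ribosomal RNA in the nucleolus from a small and a large subunit. The mRNAs usually begin at a C inside a run of pyrimidines, the 5′ terminal oligopyrimidine (TOP) motif, through which mTOR and LARP1 control their translation. MCT-1 is encoded by Mcts1, and its product pairs with DENR on the 40S subunit, where the pair serves reinitiation and the recycling of the subunit after termination.

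Promoter sequence is shown for 6 members around which the comparisons turn, namely the pair with the largest rise (Rpl41 and Rps26), a pair closer to the median that hold both motifs marked (Rpl38 and Rpl15), and those that did not rise (Rps6 and Rpl4). Each line runs from 70 bases before to 30 bases after the start given by RefSeq on GRCm38.p6, 5′ to 3′ on the coding strand. Capitals mark runs of C followed by at least 4 pyrimidines near the start, and the motif CCGGAAG of ETS factors such as GABPA.
Rpl41: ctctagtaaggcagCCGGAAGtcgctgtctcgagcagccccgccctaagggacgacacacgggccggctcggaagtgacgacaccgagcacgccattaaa
Rps26: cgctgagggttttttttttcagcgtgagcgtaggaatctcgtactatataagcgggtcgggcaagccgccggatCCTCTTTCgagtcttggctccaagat
Rpl38: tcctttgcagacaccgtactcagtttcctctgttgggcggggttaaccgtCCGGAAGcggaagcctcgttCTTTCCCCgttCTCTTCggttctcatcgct
Rpl15: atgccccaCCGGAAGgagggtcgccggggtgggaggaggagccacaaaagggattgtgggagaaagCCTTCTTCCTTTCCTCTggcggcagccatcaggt
Rps6: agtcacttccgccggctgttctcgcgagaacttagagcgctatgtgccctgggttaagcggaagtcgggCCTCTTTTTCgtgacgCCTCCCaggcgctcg
Rpl4: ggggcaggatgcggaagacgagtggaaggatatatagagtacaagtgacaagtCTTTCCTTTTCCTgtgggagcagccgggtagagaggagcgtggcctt

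These windows lie at chr10:128549139-128549238 (minus strand) for Rpl41, chr10:128626477-128626576 (minus) for Rps26, chr11:114668510-114668609 (plus) for Rpl38, chr14:18270957-18271056 (minus) for Rpl15, chr4:86857338-86857437 (minus) for Rps6 and chr9:64173317-64173416 (plus) for Rpl4. The table held 78 promoters of 66 members, each of 250 bases before and 50 after a start. Searched on both strands, CCGGAAG occurred in 34.6% of them and in 8.86% of all 32851 promoters of the table. The YY1-type motif AAGATGG occurred in 15.4% of member promoters against 6.34% of all. TATAAA was found in 8.97% of member promoters and 13.6% of all. A C followed by at least 4 pyrimidines stood exactly at the annotated start in 17.9% of member promoters and 2.51% of all. Anywhere from 25 bases before to 30 after the start, such a run occurred in 79.5% of member promoters and 55.6% of all. The median log2 fold change with silencing, taken from the additive model described below, was 0.56 for the 25 tested members with CCGGAAG and 0.54 for the 38 without. It was 0.53 for the 14 with the pyrimidine run at the start and 0.56 for the 49 without, and 0.53 for the 52 with a run in the wider window and 0.61 for the 11 without.

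Before the comparisons, the silencing itself was checked. Mcts1 lay at 15.4 and 11.8 CPM in scramble + IgG, 12.8 and 13.5 in scramble + anti-IL-6R, 6.32 and 6.18 in shMCT-1 + IgG, and 6.70 and 4.92 in shMCT-1 + anti-IL-6R. The 4 shMCT-1 libraries were all lower than the 4 scramble libraries, with a log2 fold change of -1.10 ± 0.12 (SE; edgeR quasi-likelihood test, adjusted p = 1.13e-05). Denr, which encodes its partner, was higher by 0.88 ± 0.09 on the log2 scale, and Eif2d, whose single protein carries domains like those of both, by 0.67 ± 0.06, both called. Library totals were 19839299 to 33063570 counts, those of shMCT-1 all below those of scramble. Keratin mRNAs Krt8 and Krt18 were abundant in each library (622 CPM or more), while Epcam was at 3.75 to 4.93 CPM in scramble and 49.4 to 54.5 CPM in shMCT-1. Of the 6 epithelial markers, 4 were called higher in shMCT-1, Cdh1 was not called, and Krt19 was called lower, at 16.5 to 19.5 CPM in scramble and 0.384 to 0.774 CPM in shMCT-1. The 5 macrophage markers summed to 3.12 to 3.94 CPM in scramble and 6.11 to 7.82 CPM in shMCT-1, with Adgre1 at 0 throughout. The 5 fibroblast markers summed to 15.2 to 17.3 and 12.6 to 16.1 CPM with Lum at 0, and the 4 endothelial markers to 0.096 to 0.332 and 0.555 to 1.91 CPM.

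The ribosomal protein mRNAs made up a larger part of the poly(A) RNA in the silenced cells. Their summed share of library counts was 6.22% and 5.14% in scramble + IgG and 6.16% and 5.94% in scramble + anti-IL-6R. It was 7.84% and 8.53% in shMCT-1 + IgG and 8.16% and 7.11% in shMCT-1 + anti-IL-6R. No shMCT-1 library reached down to a scramble library, with means of 5.86% ± 0.50 and 7.91% ± 0.61 (SD, n = 4 libraries each), given without a test. Mitochondrially encoded mRNAs moved the other way, from 1.97 to 2.52% in scramble to 0.840 to 1.53% in shMCT-1. With those left out of the totals, members held 5.27 to 6.35% in scramble and 7.17 to 8.66% in shMCT-1. These are shares of RNA from whole cultures, in which fewer cells of a type and less RNA per cell cannot be told apart.

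**Figure D1:**
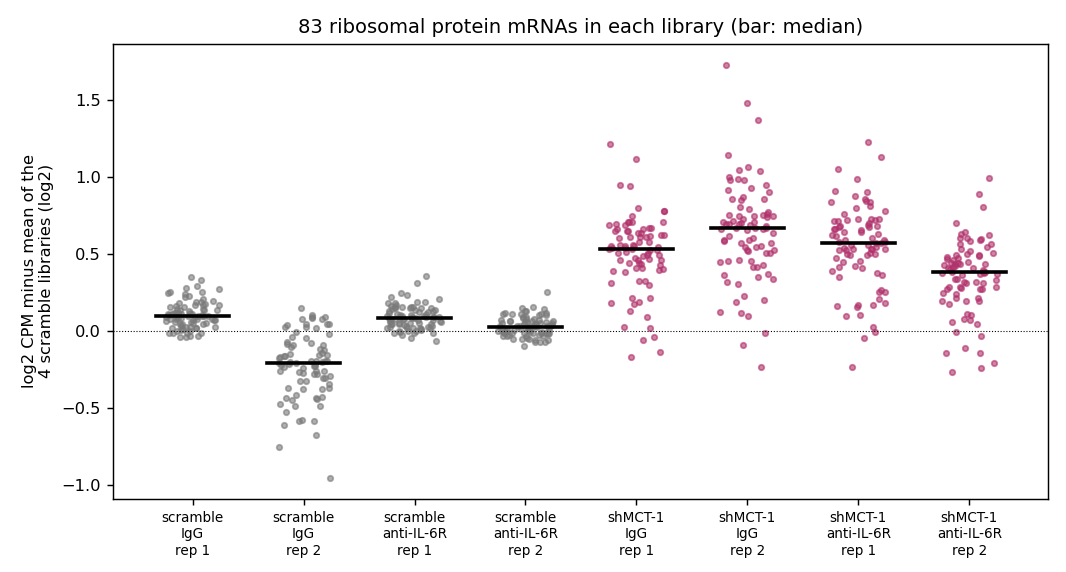
Each point is 1 of the 83 tested members. The vertical axis gives its log2 CPM, scaled by TMM as in the fits, in a library minus its mean over the 4 scramble libraries. Gray marks scramble, magenta shMCT-1, and bars are medians. The shMCT-1 medians lie between 0.38 and 0.67, and scramble + IgG replicate 2 lies below the other scramble libraries with a median of -0.21.

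Among scramble cultures, scramble + IgG replicate 2 stood apart over these genes. It had the lowest CPM, here scaled by TMM as in the fits, of the 4 scramble libraries for 67 of the 83 tested members. Among shMCT-1 cultures, shMCT-1 + IgG replicate 2 had the highest TMM-scaled CPM for 49 members. In the plot of members by library both are visible as shifts of the whole set. Results within IgG are therefore also given without both libraries, an alternative added after seeing the data. Departures were not confined to IgG: shMCT-1 + anti-IL-6R replicate 2 lay lowest of the shMCT-1 libraries, with a median of 0.38. The medians were 0.53 and 0.67 in shMCT-1 + IgG and 0.57 in shMCT-1 + anti-IL-6R replicate 1. That lowest library was kept in the fits without both. The shift of scramble + IgG replicate 2 was larger for short mRNAs: across members, its log2 ratio to the other 3 scramble libraries correlated with log2 transcript length (Pearson r = 0.40, Spearman rho = 0.42, 83 members that share these libraries). For shMCT-1 + IgG replicate 2 the relation ran weakly the other way (r = -0.19).

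**Figure D2:**
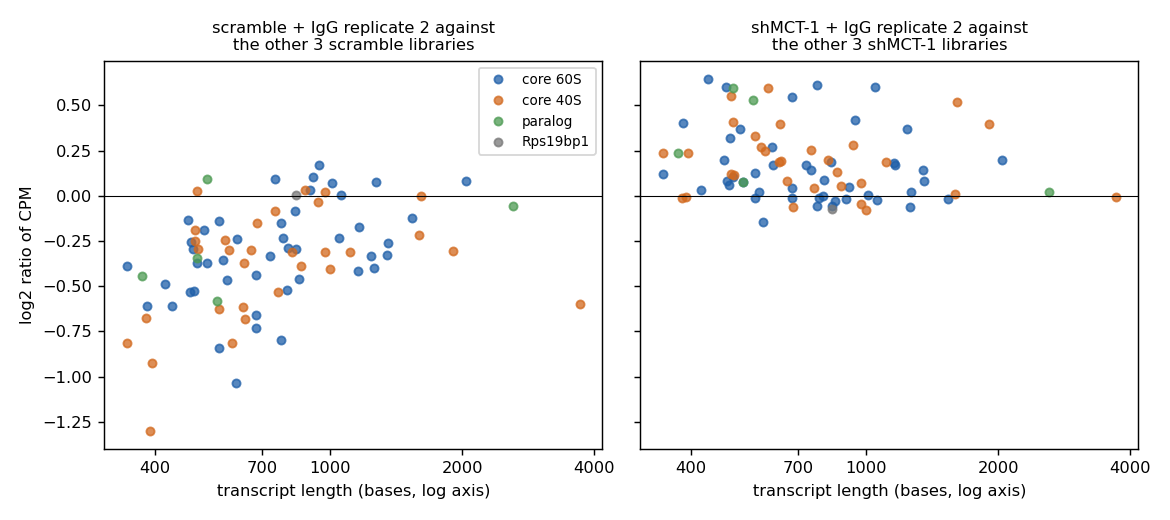
Log2 ratio of each tested member's CPM in 1 library to the mean of the other 3 of its background (vertical axis) against transcript length in bases (log axis), for the 2 libraries that stand apart; colors mark the subunit. In scramble + IgG replicate 2 most members lie below 0, with Rps29 at -1.30 the lowest.

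With MCT-1 silencing in IgG-treated cells, 71 of the 83 tested members rose and none fell (edgeR quasi-likelihood test, adjusted p under 0.05). Of all 12704 genes tested, 28.3% were called higher and 26.2% lower in this comparison. The median log2 fold change over the members was 0.66, a fold of 1.58, against 0.01 over all tested genes. Both subunits took part, with 40 of 46 core 60S and 27 of 31 core 40S members called higher. Without the 2 libraries that stood apart, which leaves no replicate in either group, the median was 0.43. Calls were then fewer among members and among all tested genes alike. With length and GC trends removed the median was 0.45, with 62 called higher and 3 lower, and 6677 of all tested genes were called in either direction.

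Under anti-IL-6R, 54 members rose and 1, Rpl4, fell, beside 26.9% of all tested genes called higher and 27.3% lower. The median was 0.42 on the log2 scale, or 1.34-fold, and the calls comprised 33 core 60S and 20 core 40S members as well as Rps19bp1. This comparison shares no library with that in IgG. All 54 members called higher under anti-IL-6R were also called higher in IgG, which is 76.1% of the 71 IgG calls, while 23.6% of all tested genes were called higher in both. No member was called lower in both, as 22.7% of all tested genes were. Fold changes of the members in the 2 comparisons had a Pearson r of 0.77 across 83 members. The median was 0.44 without scramble + anti-IL-6R replicate 1 and 0.39 without its replicate 2. It was 0.34 without shMCT-1 + anti-IL-6R replicate 1 and 0.52 without its replicate 2. In each of these fits a group of 1 library is assumed to vary like the others. In all but the last, fewer members and fewer of all tested genes were called, with the larger proportional loss among members. In those same fits, a smaller share of the members than of all tested genes was called, counting both directions. The members called there were all called higher.

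In the additive model, which takes the 4 scramble against the 4 shMCT-1 libraries with treatment as a second term, 70 members rose, 1 fell and 12 were not called, with 35.0% of all tested genes called higher and 34.0% lower. The median was 0.54 (fold 1.45), and single members ranged from -0.22 to 1.24. For 63 members (75.9%) every shMCT-1 library exceeded every scramble library, as did 29.9% of all tested genes. For 2, Rpl4 and Rps6, every shMCT-1 library was lower, as in 34.2% of all tested genes, and for the remaining 18 the backgrounds overlapped. Core 60S members had a median of 0.58 with 39 higher and 1 lower of 46, and core 40S members 0.54 with 27 higher of 31. Without the 2 libraries that stood apart, 68 members were called higher and 2 lower, with a median of 0.44, and 8479 of all tested genes were called in either direction.

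**Figure D3:**
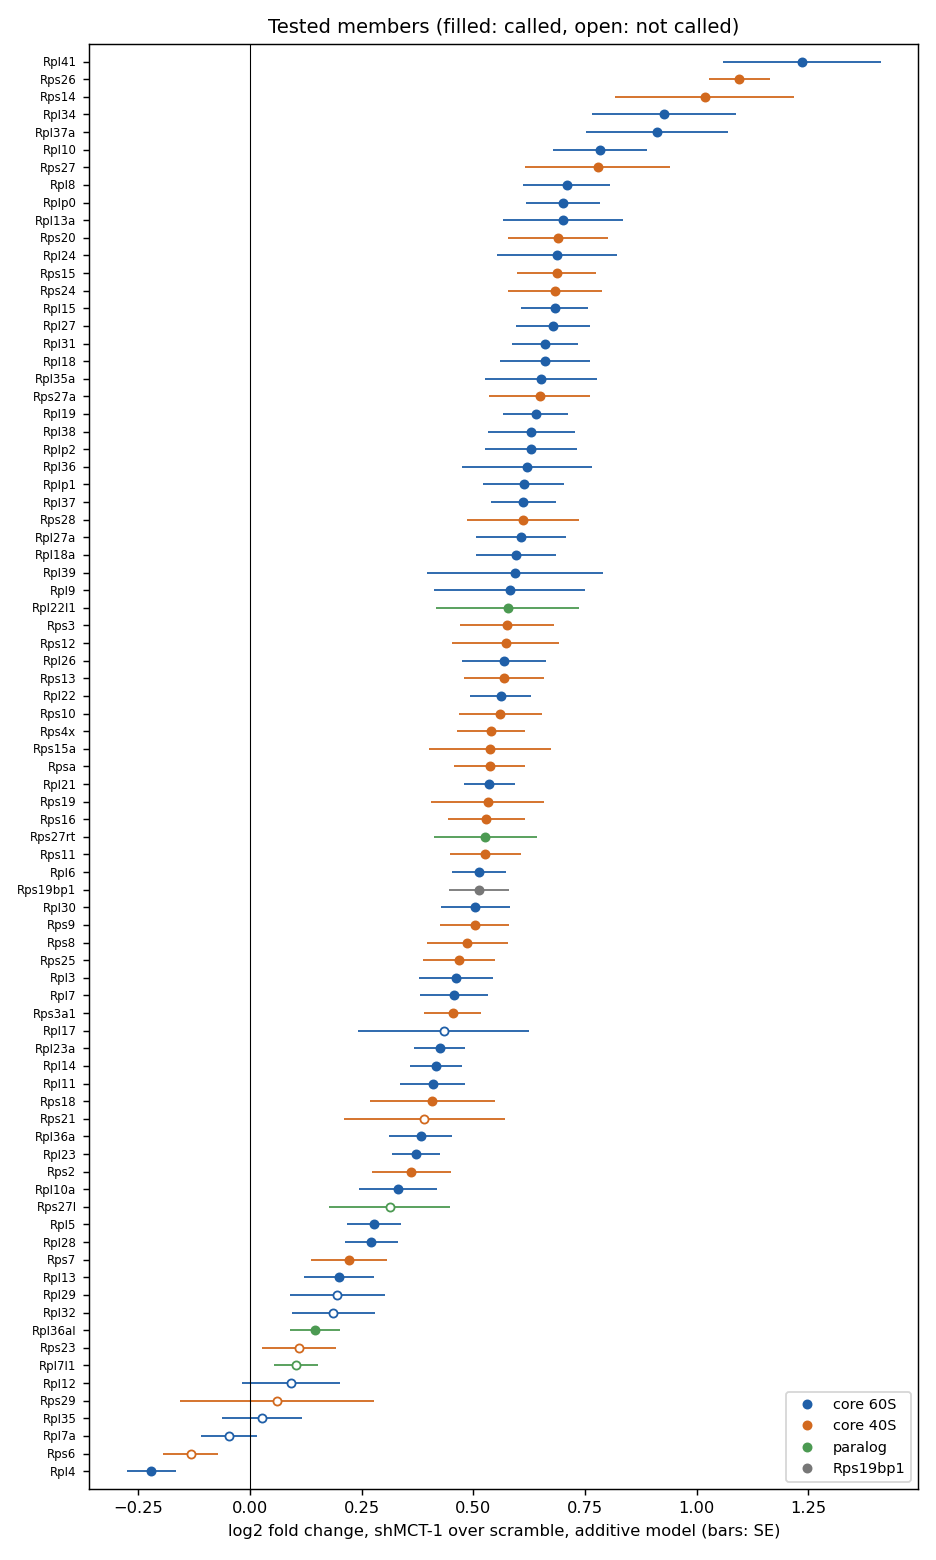
Log2 fold change of shMCT-1 over scramble in the additive model for 81 of the 83 tested members (horizontal axis, points with SE bars), ranked and colored by subunit; filled points were called and open points were not. The members run from Rpl4 at -0.22 to Rpl41 at 1.24, and both subunits are spread over the whole range.

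The members that rose most, among those called in both treatments and without overlap, included Rpl41, Rps26, Rps14, Rpl34, Rpl37a, Rpl10 and Rpl8. Rpl41 (ENSMUSG00000093674.7, chr10:128548114-128549305) encodes the shortest protein of the ribosome. It lay at 823 and 510 CPM in scramble + IgG, 757 and 755 in scramble + anti-IL-6R, 1571 and 2246 in shMCT-1 + IgG, and 1469 and 1259 in shMCT-1 + anti-IL-6R. All shMCT-1 values exceeded all scramble values, with a log2 fold change of 1.24 ± 0.18 (SE; edgeR quasi-likelihood test, adjusted p = 0.000101). Without the 2 libraries that stood apart it was 0.93.

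Rps26 (ENSMUSG00000025362.6, chr10:128624534-128626747) encodes a 40S protein at the mRNA exit channel, where it contacts bases upstream of the start codon. Its CPM was 671 and 580 in scramble + IgG, 640 and 621 in scramble + anti-IL-6R, 1315 and 1252 in shMCT-1 + IgG, and 1405 and 1210 in shMCT-1 + anti-IL-6R. The backgrounds did not overlap, and the change was nearly equal under IgG (1.08 ± 0.10) and under anti-IL-6R (1.11 ± 0.10), with edgeR adjusted p-values of 4.04e-05 and 3.34e-05. It was the member with the smallest p-value in each of these comparisons, and the change was 1.08 without the 2 libraries that stood apart.

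Rps14, which lines the mRNA channel close to the decoding site, was at 315 and 172 CPM in scramble + IgG, 297 and 294 in scramble + anti-IL-6R, 487 and 709 in shMCT-1 + IgG, and 521 and 397 in shMCT-1 + anti-IL-6R. Rpl34, a 60S protein, was at 312, 212, 307 and 302 CPM in the scramble libraries in the same order, and at 466, 700, 501 and 419 CPM in the shMCT-1 libraries. Both were higher in all shMCT-1 libraries, by 1.02 ± 0.20 and 0.93 ± 0.16 (log2 fold change ± SE), and in both shMCT-1 + IgG replicate 2 gave the highest value and scramble + IgG replicate 2 the lowest. Without those 2 libraries the changes were 0.69 and 0.65. Rpl37a (0.91 ± 0.16), Rpl10 (0.78 ± 0.10) and Rpl8 (0.71 ± 0.10) followed. RPL10 is added late in 60S maturation and borders the catalytic center.

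**Figure D4:**
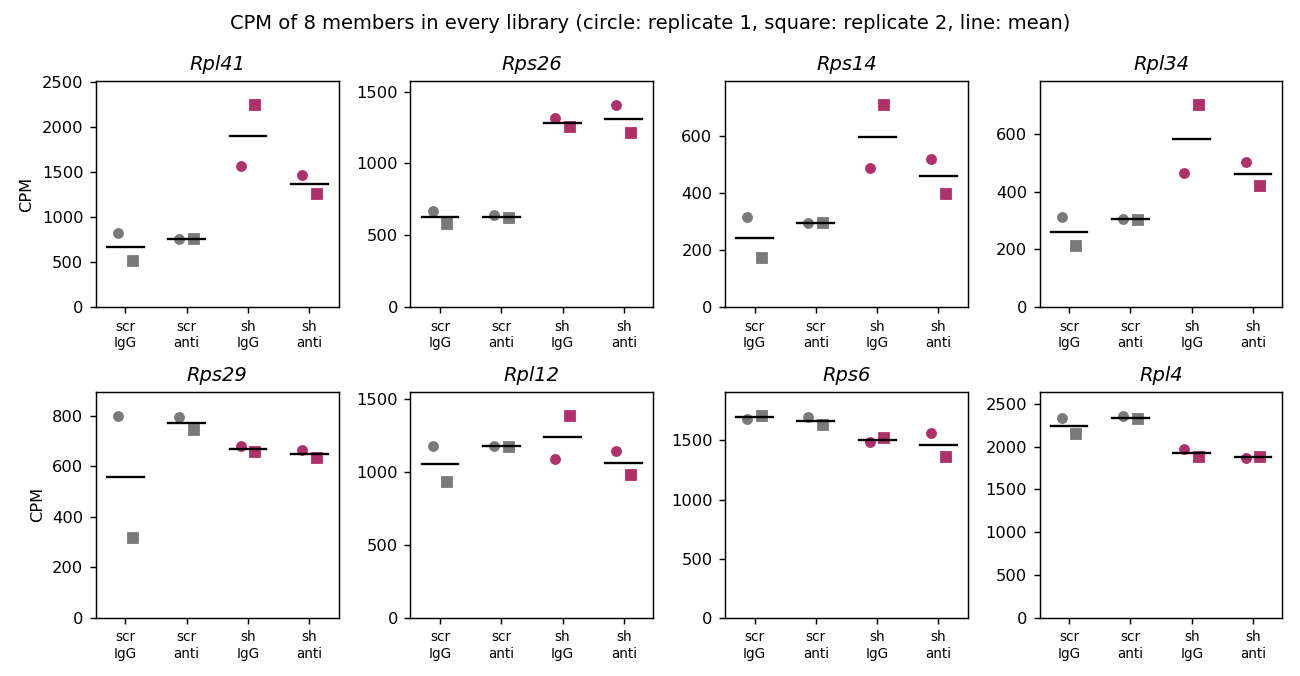
CPM (vertical axes, from 0) of 8 members in every library, by group; scr is scramble, sh is shMCT-1 and anti is anti-IL-6R, and lines are means of 2. Rpl41, Rps26, Rps14 and Rpl34 are higher in all shMCT-1 libraries, Rps6 and Rpl4 are lower, and Rps29 in scramble + IgG replicate 2 lies at 316 CPM, below its other 7 libraries.

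In the additive model a single member, Rpl4, was called lower, but with length and GC trends removed 4 were, as Rps6 (-0.27), Rpl7a (-0.25) and Rpl35 (-0.26) joined it. Rpl4 (ENSMUSG00000032399.8, chr9:64173375-64178666) encodes a large protein with a loop that reaches the nascent chain tunnel. It lay at 2337 and 2150 CPM in scramble + IgG, 2358 and 2318 in scramble + anti-IL-6R, 1969 and 1881 in shMCT-1 + IgG, and 1868 and 1878 in shMCT-1 + anti-IL-6R. All 4 shMCT-1 values were lower, with a log2 fold change of -0.22 ± 0.06 in the additive model (edgeR adjusted p = 0.00418). It was called under anti-IL-6R (-0.26, adjusted p = 0.0201) but not in IgG (-0.18, adjusted p = 0.0887).

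Rps6, which encodes the 40S protein phosphorylated by the S6 kinases downstream of mTOR, was at 1685, 1708, 1702 and 1633 CPM in the scramble libraries and at 1485, 1525, 1561 and 1358 CPM in the shMCT-1 libraries. The libraries did not overlap, but the change of -0.13 ± 0.06 was not called (edgeR adjusted p = 0.0755). Rps29, a small zinc-binding 40S protein, was at 799, 316, 795 and 744 CPM in scramble and at 679, 655, 666 and 632 CPM in shMCT-1. Its backgrounds overlapped through scramble + IgG replicate 2 alone, and the additive log2 fold change was 0.06 (edgeR adjusted p = 0.82). Without the 2 libraries that stood apart it was -0.19. Those 2 were chosen from the members' own values, and 1 of them held the low value of Rps29. Leaving that library out was bound to lower the change, so no p-value is given for the later fit. The other members not called in the additive model were Rpl17, Rps21, Rpl29, Rpl32, Rps23, Rpl12, Rpl35, Rpl7a and the paralogs Rps27l and Rpl7l1, at -0.05 to 0.43.

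By position in the ribosome, the P stalk, which recruits the translation factors with GTPase activity, had 3 of 4 members called higher in the additive model. Rplp0 changed by 0.70 ± 0.08, Rplp1 by 0.61 ± 0.09 and Rplp2 by 0.63 ± 0.10, while Rpl12, at the base of the stalk, was at 0.09 ± 0.11 and not called. The direction for Rpl12 depended on the libraries, being -0.08 without the 2 that stood apart. Rpl11 and Rpl5, which bind 5S rRNA and can inhibit MDM2, rose by 0.41 ± 0.07 and 0.28 ± 0.06. At the exit of the nascent chain 5 of 7 rose, with Rpl17 and Rpl35 not called. All 9 members linked to Diamond-Blackfan anemia in the list used rose, with a median of 0.56. The X-linked members all rose, Rpl10 as above, Rpl39 by 0.59 ± 0.20, Rps4x by 0.54 ± 0.08 and Rpl36a by 0.38 ± 0.07. The change of Rpl39 was 0.36 without scramble + IgG replicate 2, 0.32 without both libraries that stood apart, and 0.51 and no longer called without shMCT-1 + IgG replicate 2. Beside all of these counts stands the 35.0% of tested genes called higher.

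Some ribosomal proteins are made as fusions with ubiquitin or a ubiquitin-like domain. Of these, Rps27a rose by 0.65 ± 0.11 among the members and Fau (which encodes RPS30), outside the symbol rule, by 0.72 ± 0.09. Rack1, which encodes a scaffold on the head of the 40S subunit, rose by 0.56 ± 0.11. Among the paralogs, Rpl22l1 lay between 17.1 and 27.9 CPM in scramble and between 26.7 and 44.3 CPM in shMCT-1 and was called higher (0.58 ± 0.16), as were Rps27rt (0.53 ± 0.11) and Rpl36al (0.15 ± 0.06), the latter in only 2 of the 8 fits that leave out 1 library. Rps27l (0.31 ± 0.14) and Rpl7l1 (0.10 ± 0.05) were not called. Rpl10l and Rpl39l were at 0 in every library and Rpl3l, known from muscle, at no more than 0.0504 CPM. Rps4l, annotated as a pseudogene and no member, was also at 0. Rps19bp1 rose by 0.51 ± 0.07.

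Per kilobase of transcript, levels of the 77 core members spread over 15.8- to 25.7-fold within a library, with a standard deviation of 0.80 to 0.92 on the log2 scale. By mean CPM per kilobase over all libraries, Rplp1 was highest at 3353, followed by Rpl41 (2686), Rpl13 (2456), Rpsa (2330) and Rps12 (2313). The lowest were Rps19bp1 at 44.1, Rpl22l1 at 52.2, Rpl7l1 at 73.0, Rps27rt at 81.4 and Rps27l at 123, of which all but the first are paralogs. Lengths are those of 1 annotated transcript per gene, and the order rests on that choice. The change with silencing did not follow the level (Pearson r = 0.07 across 83 members between additive log2 fold change and log2 CPM per kilobase) and was weakly related to length (r = -0.25).

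The change also varied with the chromosome. The other tested genes on chromosomes 2, 12 and 13 had median log2 fold changes of -0.37, -0.36 and -0.42 with silencing, against -0.08 to 0.21 on the other chromosomes that carry members. On chromosome 2 none of the 4 members (Rpl12, Rpl35, Rpl7a and Rps21) was called, on chromosome 13 Rps23 was not called, and on chromosome 12 Rps7 and Rpl36al were called higher by 0.22 and 0.15 while Rps29 was not called. The call of Rps7 held in 3 and that of Rpl36al in 2 of the 8 fits that leave out 1 library, and both were lost with length and GC trends removed (-0.00091 and 0.034), as was that of Rps7 without the 2 libraries that stood apart (0.10). Of the 12 members not called, 6 lie on these 3 chromosomes. On each of the 19 chromosomes that carry tested members, the members' median exceeded that of the other genes, by 0.14 (chromosome 6, Rpl32 alone) to 0.80 (chromosome 10, 4 members). Across members, log2 fold change and chromosome median had a Pearson r of 0.55, with members of a chromosome sharing 1 value. After subtracting that median, 81 of 83 members were above 0, the median was 0.49, and the standard deviation among members went from 0.25 to 0.21.

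**Figure D5:**
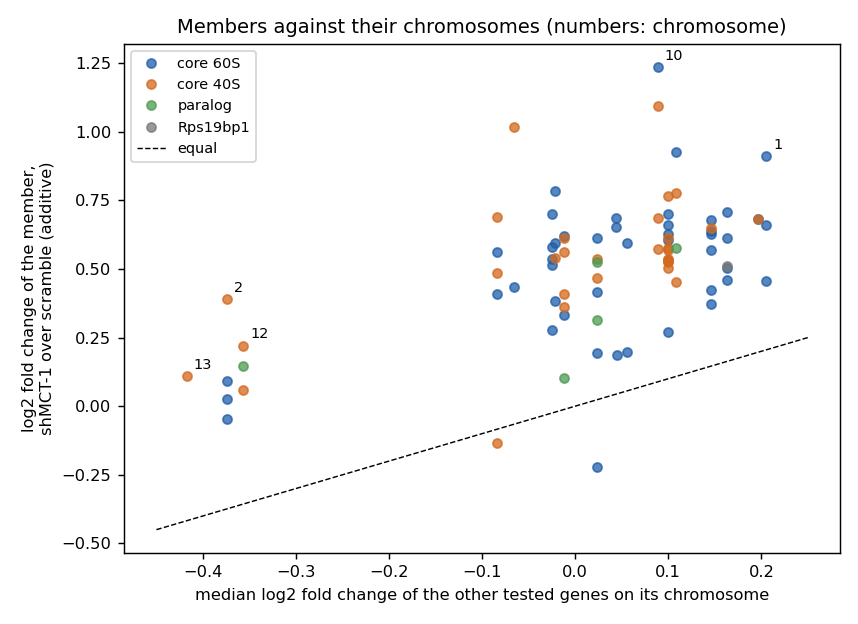
Log2 fold change of each tested member in the additive model (vertical axis) against the median log2 fold change of the other tested genes on its chromosome (horizontal axis), with the dashed line marking equal values; numbers name chromosomes. All members but Rpl4 and Rps6 lie above the line, and the members on chromosomes 2, 12 and 13 form a group at the left.

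IL-6R blockade left no member called. In scramble cells 0 of 83 members were called (0% of all tested genes), 0 had an unadjusted p under 0.05, and the median log2 fold change was 0.09. The smallest p-values were those of Rps28 (0.27 ± 0.17) and Rpl24 (0.29 ± 0.19), both with an adjusted p of 1 by edgeR. In shMCT-1 cells again 0 members were called (0% of all tested genes), 4 had an unadjusted p under 0.05, and the median was -0.10. The smallest p-values belonged to Rps12 (-0.41 ± 0.14) and Rps24 (-0.36 ± 0.14), with an adjusted p of 1. Rps12 lay at 1317 and 1777 CPM in shMCT-1 + IgG and at 1219 and 1098 CPM in shMCT-1 + anti-IL-6R, so that the groups did not overlap, with the higher IgG value from the library that stood apart. In the additive model 0 members were called (0% of all), 2 had an unadjusted p under 0.05, and the median was -0.0022. DESeq2 called 0 members in these 3 comparisons as well. The median SE of a member was 0.13 within a background and 0.09 in the additive model. Changes of about that size were not detectable, and larger ones, such as that of Rps12 (-0.41 ± 0.14), were not called either.

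The log2 fold change with silencing was higher in IgG than under anti-IL-6R for 76 of the 83 tested members, which share the same libraries. It was higher in IgG for 6779 of all 12704 tested genes. The difference itself was called for 0 members (0% of all tested genes), with 2 at an unadjusted p under 0.05 (Rps12 and Rpl17), 0 called by DESeq2 and a median interaction of -0.19. Without the 2 libraries that stood apart, both of which are IgG cultures, the median interaction was 0.0035. Those 2 were chosen from the members' own values, as the lowest scramble and the highest shMCT-1 library. Leaving them out was bound to shrink the change in IgG, so this value does not bear on the interaction. Without shMCT-1 + anti-IL-6R replicate 2, the median change under anti-IL-6R was 0.52 in place of 0.42.

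Genes around the ribosomal proteins are given for comparison, beside the 35.0% of all tested genes called higher and 34.0% called lower in the additive model. Of 14 other mRNAs with a TOP motif, 10 rose in the additive model and none fell, with a median of 0.34. The elongation factor Eef1a1 rose by 0.68 ± 0.06 and Eef1b2 by 0.65 ± 0.06, while Pabpc1 (-0.03 ± 0.09), Hnrnpa1, Nap1l1 and Npm1 were not called. Of 42 genes for rRNA synthesis and ribosome assembly, 13 rose and 10 fell, with a median of 0.04. Rsl24d1, which acts in 60S assembly, rose by 0.75 ± 0.06, and Mdn1, the ATPase that remodels pre-60S particles, fell by 1.80 on the log2 scale. The second largest RNA polymerase I subunit, Polr1b, fell by 0.76. Of 78 mitochondrial ribosomal protein genes, 62 rose and 6 fell, with a median of 0.39. Of 12 regulators, 6 fell, among them Mtor by 0.53, Gabpa by 0.44, Yy1 by 0.41 and Myc by 0.41 on the log2 scale, and 2 rose, Eif4ebp1 by 0.39 and Trp53 by 0.21, with Larp1 not called (-0.07 ± 0.06).

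Processed pseudogenes can share reads with their parent genes. The annotation lists 300 of them by symbol for 60 members, and they held 6.53 to 8.77% of the summed counts of members and pseudogenes. Of 67 that passed the filter, 38 were called higher and none lower in the additive model, where 35.0% of all tested genes were called higher and 34.0% lower, with a median of 0.49 over these pseudogenes. When each member was summed with its pseudogenes, 70 members were again called higher and 1 lower, with a median of 0.54.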

How the data were processed

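The authors trimmed reads with cutadapt 1.18, aligned them to mm10 (GENCODE M19) with STAR 2.7.0d and deposited expected counts per gene from RSEM, not normalized; the strand setting is not given in the sources used here. Values were rounded to whole counts. Of 54532 identifiers, 54495 matched GENCODE M21 on GRCm38, which gave symbols, coordinates and lengths. The 12704 genes above 1 CPM in 2 or more libraries were tested in R 4.3.3 with edgeR 4.0.16: TMM, quasi-likelihood fits of the 4 group means and of an additive model over all 8 libraries, Benjamini-Hochberg adjustment over all tested genes, calls at an adjusted p under 0.05. The quasi-likelihood test stood in for the exact test of the study, which was an alternative. The test was tested on simulated data. DESeq2 1.42.0, other scalings and filters, a replicate block, a length and GC correction (loess, span 0.3), summing with pseudogenes and leaving out libraries were alternatives.

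One CPM stood for 19.8 to 33.1 counts, and the 83 tested members had mean levels of 28.8 to 3725 CPM. With 2 libraries a group, p-values measure the spread between these cultures only. The labels name no batch. Replicates differed beyond counting noise (chi-square per degree of freedom 4.35 to 27.7). Promoters came from RefSeq (GRCm38.p6), and 66 of 86 members matched by symbol. Members and gene lists were chosen with earlier results of these data known. Named members were Mcts1, those of the lists of paralogs, P stalk, 5S RNP, X-linked and ubiquitin fusions, the 8 that rose or fell most without overlap and in both treatments, the 5 highest and 5 lowest per kilobase and, for anti-IL-6R, the 2 with the smallest p in each background. Some genes that this rule or the lists name are not reported here. Others, such as Rpl4, Rps6 and Rps29, were named after their values were seen.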

Additional observations from a re-analysis of the deposited data

How the results depend on the processing

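In the additive model, 66 to 75 members were called under each alternative, leaving out any 1 library included, beside 7875 to 10224 of all tested genes. The median of the members stayed between 0.41 and 0.60 on the log2 scale. Within IgG, 46 members were called without scramble + IgG replicate 2 and shMCT-1 + IgG replicate 2 together, and leaving out 1 library gave 57 to 76. The median there was 0.45 with length and GC trends removed, 0.43 without both libraries, and 0.49 (without scramble + IgG replicate 2) to 0.85 (without scramble + IgG replicate 1) with 1 left out. Under anti-IL-6R, leaving out 1 library gave 19 to 65 calls, and edgeR's exact test gave 66. For anti-IL-6R in scramble, leaving out 1 library gave 0 to 2 calls and medians of -0.037 to 0.27, and for the interaction 0 to 2 calls and medians of -0.38 to -0.045. The interaction median was -0.047 with length and GC trends removed. It was 0.0035 without both libraries, which were chosen from these same values. With no filter on low counts, 1 member was called for anti-IL-6R in scramble, 3 in shMCT-1 and 5 for the interaction. Calls over all genes rose too, from 0 in each of these comparisons to 64, 133 and 97 in that order. Without the filter, the median of all genes in the additive model moved from 0.01 to -0.13. For anti-IL-6R in shMCT-1, leaving out 1 library gave medians of -0.18 to 0.0041. The causes were not tested.

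With the replicate number as a block, 72 members were called within IgG, 58 within anti-IL-6R, 71 in the additive model and 0 for anti-IL-6R and the interaction. The numbers did not pair the samples (correlations of replicate differences between groups -0.08 to 0.11).

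Some values changed sign. With length and GC trends removed, Rpl36al was at -0.073 within IgG, Rpl13 at -0.11 within IgG, -0.024 within anti-IL-6R and -0.069 in the additive model, and Rpl12 at -0.11 in the additive model. Rpl12 was at -0.052 within IgG and -0.079 in the additive model without both libraries. Leaving out 1 library, it ran from -0.017 (without shMCT-1 + IgG replicate 2; -0.0045 without scramble + IgG replicate 2) to 0.18 in the additive model, and from -0.20 to 0.038 within anti-IL-6R, the latter when shMCT-1 + anti-IL-6R replicate 2 was left out. Among the members outside the rule for named genes, Rpl35 in the additive model went from 0.03 to -0.26 (called lower) and Rps7 to -0.00091 with length and GC trends removed, under which Rpl29 within IgG went to -0.012, Rpl35 within IgG to -0.25 and Rps7 within anti-IL-6R to -0.049. Without both libraries, Rps29 within IgG went to -0.18 and Rpl35 in the additive model to -0.034. The additive calls of Rpl13, Rpl36al, Rps7, Rpl39 and Rps18 were lost in at least 1 fit that leaves out 1 library. Over all named genes and alternatives, 1850 of 2004 values counted as unchanged, 76 were no longer called, 47 became called and 10 changed sign. Unchanged meant the same direction and side of the threshold, except after subtracting the chromosome median, which gives no p-value. There it meant a shift under 0.14, met by 69 values, while 21 moved further.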
